A study of Mus musculus with 45 samples.

Results

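The 8 genes described here make, sense and clear prostaglandins: Pla2g4a, Ptgs1, Ptgs2, Ptges, Ptgis, Ptger2, Ptger4 and Hpgd. They were taken by symbol from the 37991 genes counted in mouse embryonic fibroblasts (MEFs), and all 8 were found and passed the filter on low counts, as did 13851 genes in all. Prostaglandins are lipid mediators made from arachidonic acid, which the cytosolic phospholipase A2 (Pla2g4a) cuts out of membrane phospholipids. The cyclooxygenases (Ptgs1, the housekeeping form, and Ptgs2, the form induced by inflammatory signals) turn it into prostaglandin H2, from which terminal synthases make prostaglandin E2 (Ptges) or prostacyclin (Ptgis). Prostaglandin E2 acts through receptors such as EP2 (Ptger2) and EP4 (Ptger4), both coupled to cyclic AMP, and is inactivated by 15-hydroxyprostaglandin dehydrogenase (Hpgd). Fibroblasts are a known source of prostaglandin E2 in inflamed tissue.

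The cells were primary MEFs from C57BL/6 embryos, either wild type (WT) or lacking p53 (p53KO, lines KO-1 and KO-2), kept overnight in low serum and then given interleukin 1 beta (IL-1b, 10 ng/ml), tumour necrosis factor (TNF, 10 ng/ml) or bacterial lipopolysaccharide (LPS, 100 ng/ml). RNA was taken at 0, 0.5, 1, 3 and 8 h, with a separate 0 h library for each stimulus. The 45 libraries comprise 15 from 1 WT line and 15 from each p53KO line, so each condition has 1 WT and 2 p53KO libraries. The series was a control experiment on whether inflammatory genes are induced alike in p53-deficient fibroblasts, which can be expanded for longer, and in those of a WT littermate. The submitters call the 2 p53KO lines biological replicates but leave unsaid whether these derive from different embryos and whether the 0 h libraries came from separate cultures, so p-values measure the spread between these samples, which may be partly technical. Every time was compared with the 0 h libraries of its own stimulus, so the 4 times of a series share their controls.

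Gene counts totalled 5619870 to 15355994 per library, with a median of 9347770. Trp53, the p53 gene, lay at 50.9 to 86.6 CPM (the count of a gene scaled to library size, as edgeR defines it) in the 30 p53KO libraries and at 158 to 293 CPM in the 15 WT libraries, so transcript remained but the groups did not overlap. All 10 fibroblast markers, among them Col1a1, Col1a2 and Pdgfrb, were found in every library, with a summed level of 30570 to 40128 CPM in p53KO and 30681 to 38067 CPM in WT. All 10 macrophage markers were also found in every library, at a sum of 281 to 486 CPM in p53KO and 398 to 592 CPM in WT, of which Lyz2 made up 143 to 305 and 246 to 415 CPM. Endothelial markers summed to 12.9 to 28.5 CPM in p53KO and 10.6 to 22.4 in WT, epithelial markers to 26.8 to 51.2 and 6.31 to 15.4, mostly Krt18, and mast cell and platelet markers to 5.96 to 13.0 and 8.40 to 22.1, with Fcer1a and Tpsb2 at 0 counts in all 45 libraries. In these bulk samples fewer cells of a type and less RNA per cell cannot be told apart.

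The promoter windows of Ptgs2 and Ptges are shown because these are the 2 synthesis genes with the largest responses, and their time courses differed. Each window runs from 250 bases before to 50 bases after the annotated start, from RefSeq on GRCm38.p6. Ptgs2 lies at chr1:150099781-150100080 on the plus strand and Ptges at chr2:30903248-30903547 on the minus strand. Capitals mark matches to TTNNGNAA, a simple form of the C/EBP motif, and in Ptgs2 also a run in which a cyclic AMP response element core (TGACG or its reverse complement) overlaps an E-box (CACGTG).
Ptgs2: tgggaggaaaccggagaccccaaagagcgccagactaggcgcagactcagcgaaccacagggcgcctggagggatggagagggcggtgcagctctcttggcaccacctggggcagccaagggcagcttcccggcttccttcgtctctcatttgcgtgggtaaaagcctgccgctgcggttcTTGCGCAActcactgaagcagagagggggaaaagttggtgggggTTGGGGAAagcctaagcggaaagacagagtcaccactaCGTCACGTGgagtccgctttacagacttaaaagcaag
Ptges: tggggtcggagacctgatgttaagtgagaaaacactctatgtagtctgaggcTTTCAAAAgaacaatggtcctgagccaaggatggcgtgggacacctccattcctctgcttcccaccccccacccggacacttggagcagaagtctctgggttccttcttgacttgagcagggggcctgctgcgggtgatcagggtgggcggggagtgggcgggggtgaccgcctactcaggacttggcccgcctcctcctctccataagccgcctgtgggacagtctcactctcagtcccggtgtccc
The Ptgs2 window held C/EBP matches starting at -69 and -25, a core at 14 and the E-box at 17, counted from the start site, and the Ptges window held 1 C/EBP match at -198. Windows were matched for 7 of the 8 genes, giving 8 windows, 2 of them for Pla2g4a. Over both strands, the C/EBP form occurred in 40.7% of 32851 RefSeq windows, the cyclic AMP core in 20.8% and the E-box in 7.2%. Of the 8 windows of these genes, 5 held the C/EBP form, 1 the cyclic AMP core and 1 the E-box. The letters TATAAA of the TATA box, or their reverse complement, were in 2 of the 8 windows (Hpgd and Pla2g4a) and in 13.6% of all. The match began at 5, past the start site, in Hpgd, and at -200, as TTTATA, in Pla2g4a. An NF-kB motif, in 5.9% of all windows, and the AP-1 motif TGANTCA, in 7.8%, were in 0 of the 8, which says only that these letters are not in these windows. These are letter matches only, and no binding was measured.

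Most of the 8 genes moved after stimulation, in an order of time. In p53KO cells Ptgs2 had risen by 0.5 h and peaked at 3 h, Ptger4 rose at 1 h, and Ptges, Ptgis, Ptgs1 and Ptger2 rose at 3 h, while Hpgd fell. By 8 h Ptgs2 had dropped back to 16.6 to 19.0% of its 3 h level, whereas Ptges was higher at 8 h than at 3 h with IL-1b and LPS, and with TNF in the fit with the cell line as a block. Pla2g4a was called at 8 h of LPS alone, with a small rise. All changes and adjusted p-values below come from edgeR's quasi-likelihood test with Benjamini-Hochberg adjustment over all genes tested, changes are on the log2 scale, and a call needs an adjusted p under 0.05. The p53KO libraries come in pairs by line. Where a fit with the line (KO-1 or KO-2) as a block changed a call for the 8 genes, its value is given beside the result.

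At 0.5 h 1 of the 8 genes, Ptgs2, was called with each stimulus, where 7.39% of all genes tested were called with IL-1b, 0.751% with TNF and 0.527% with LPS. The IL-1b share of all genes at 0.5 h rests on few libraries, since 164 to 653 genes were called without any 1 of the 4 libraries, against 1024 with all. With the line block 2 of the 8 genes (Ptgs2 and Ptgis) and 1537 of all genes were called at 0.5 h of IL-1b. At 1 h Ptgs2 and Ptger4 were called with each stimulus, against 5.94%, 5.85% and 5.31% of all genes with IL-1b, TNF and LPS. At 3 h 6 genes were higher and 1 lower with each stimulus. The shares of all genes called at 3 h were 21.0% higher and 21.7% lower with IL-1b, 18.4% and 17.6% with TNF, and 21.9% and 22.1% with LPS. The median log2 change of the 8 genes at 3 h was 0.94 with IL-1b, 0.67 with TNF and 0.65 with LPS, beside medians of -0.022, -0.010 and -0.020 over all genes. At 8 h 5 genes were higher with IL-1b, 5 higher and 1 lower with TNF, and 6 higher and 1 lower with LPS. The corresponding shares of all genes were 12.5% higher and 11.8% lower with IL-1b, 14.5% and 14.1% with TNF, and 17.0% and 17.2% with LPS. The summed macrophage markers lay at 299 to 383 CPM in the 6 p53KO libraries at 0 h and at 281 to 486 CPM in the 24 later ones, and their part in these changes was not tested.

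**Figure D1:**
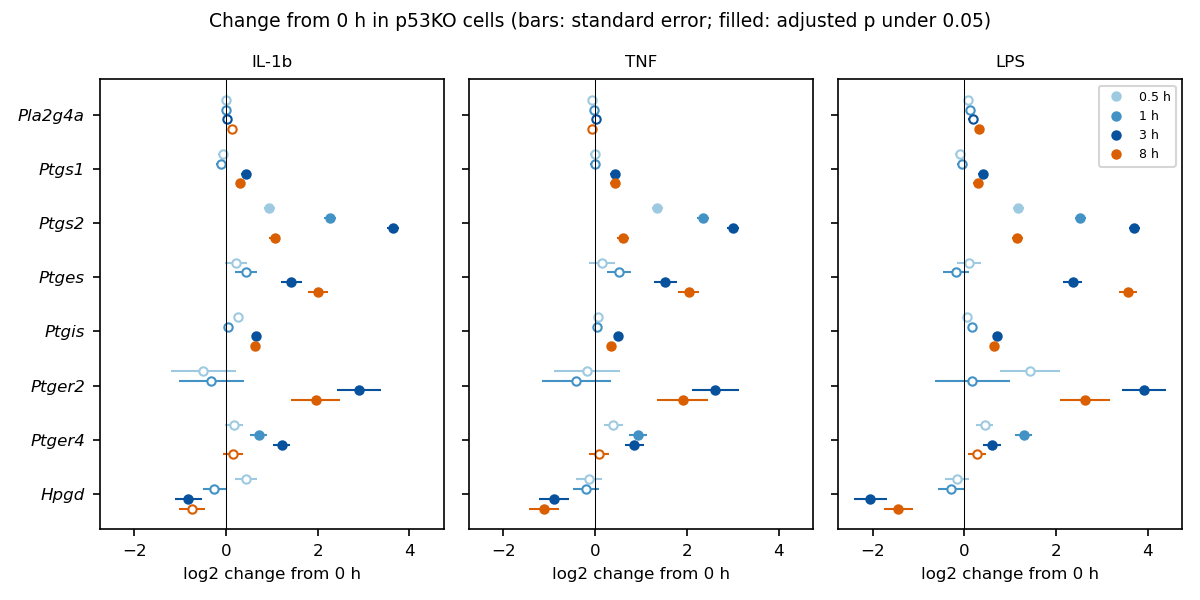
Log2 change from 0 h (x axis) of the 8 genes (y axis) in p53KO cells, in 1 panel per stimulus, with times as colours. Points are fitted changes from 2 libraries per time, bars are 1 standard error, and filled points have an adjusted p under 0.05; Ptgs2 at 3 h lies furthest to the right with IL-1b and TNF, Ptger2 at 3 h (3.92) and Ptgs2 at 3 h (3.71) with LPS, and Hpgd lies to the left at 3 and 8 h.

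Levels before stimulation can be compared between genes per kilobase of exon. In p53KO cells at 0 h (mean of 6 libraries) Ptgs2 stood highest at 30.2 CPM per kb, followed by Ptgis at 24.9, Pla2g4a at 16.7 and Ptgs1 at 13.1. Hpgd followed at 2.12, Ptges at 1.55, Ptger4 at 0.552 and Ptger2 at 0.0783 CPM per kb. In WT cells (mean of 3 libraries) Ptgs2 stood at 80.8 and Pla2g4a at 16.7, while Ptgis was lower, at 11.9, close to Ptgs1 at 10.9 CPM per kb. Both cyclooxygenases, the phospholipase and prostacyclin synthase were thus already detected in unstimulated cells, and the 2 receptors were the scarcest.

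Pla2g4a (ENSMUSG00000056220, mm9 chromosome 1, 151676748 to 151808420, minus strand), which frees the substrate, is the neighbour of Ptgs2, with 138833 bp and 1 annotated gene between them. Its level lay at 99.9 to 113 CPM in the 6 p53KO libraries at 0 h and at 106 to 108 CPM in the 3 WT libraries. Over all times it stayed within a narrow band, 99.2 to 139 CPM in the 30 p53KO libraries and 99.4 to 131 CPM in the 15 WT libraries. At 8 h of LPS it read 139 CPM in KO-1 and 127 CPM in KO-2, above both of their 0 h libraries (113 and 99.9 CPM). That rise, 0.32 (SE 0.09, adjusted p = 0.00706), was the one call for Pla2g4a among the 12 comparisons with 0 h. At 3 h of LPS a change of 0.18 passed with the line block (adjusted p = 0.0479) and with all 0 h libraries pooled (0.0347). The 8 h call was lost without the KO-1 8 h library (adjusted p = 0.0942) or the KO-2 0 h library (0.128).

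Ptgs1 (ENSMUSG00000047250, chromosome 2, 36085946 to 36107792, plus strand), the constitutive cyclooxygenase, rose modestly and late. It lay at 45.9 to 54.0 CPM in the 6 p53KO libraries at 0 h. At 3 h it read 69.0 and 73.9 CPM in KO-1 and KO-2 with IL-1b, 60.2 and 71.9 with TNF, and 69.7 and 65.7 with LPS, so no 3 h library overlapped those at 0 h. The log2 changes at 3 h were 0.44 (SE 0.11, adjusted p = 0.00172) with IL-1b, 0.43 (0.00332) with TNF and 0.41 (0.00279) with LPS. At 8 h they were 0.32, 0.43 and 0.30, with adjusted p = 0.0297, 0.00502 and 0.0330. The 8 h calls with IL-1b and with LPS were each lost without any 1 of their 4 libraries (adjusted p = 0.0657 to 0.155 and 0.0536 to 0.198). With TNF the 3 h call was lost without the KO-2 library at 0 or 3 h (0.0605 and 0.0771) and the 8 h call without the KO-2 0 h library (0.0872). By DESeq2's Wald test the 8 h rises had adjusted p = 0.0762 with IL-1b and 0.0626 with LPS.

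Ptgis (ENSMUSG00000017969, chromosome 2, 167017305 to 167066104, minus strand), prostacyclin synthase, followed the same late course. From 57.9 to 70.6 CPM over the 6 p53KO libraries at 0 h it reached 109 and 96.7 CPM in KO-1 and KO-2 at 3 h of IL-1b, 93.2 and 95.1 with TNF, and 99.0 and 94.9 with LPS. At 8 h it was still 110 and 93.9 CPM with IL-1b, 87.5 and 82.4 with TNF, and 93.3 and 91.3 with LPS. All of these libraries were above every 0 h library. The log2 changes were 0.66 (SE 0.09, adjusted p = 9.54e-07), 0.49 (SE 0.09, 9.84e-05) and 0.71 (SE 0.09, 2.86e-07) at 3 h of IL-1b, TNF and LPS, and 0.64, 0.34 and 0.64 at 8 h. The 8 h TNF call (adjusted p = 0.00454) was lost without the KO-1 library at 0 h (0.0708) or 8 h (0.0790). At 0.5 h of IL-1b a rise passed with the line block (0.26, adjusted p = 0.0339) and with pooled 0 h libraries (0.30, 0.00445).

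**Figure D2:**
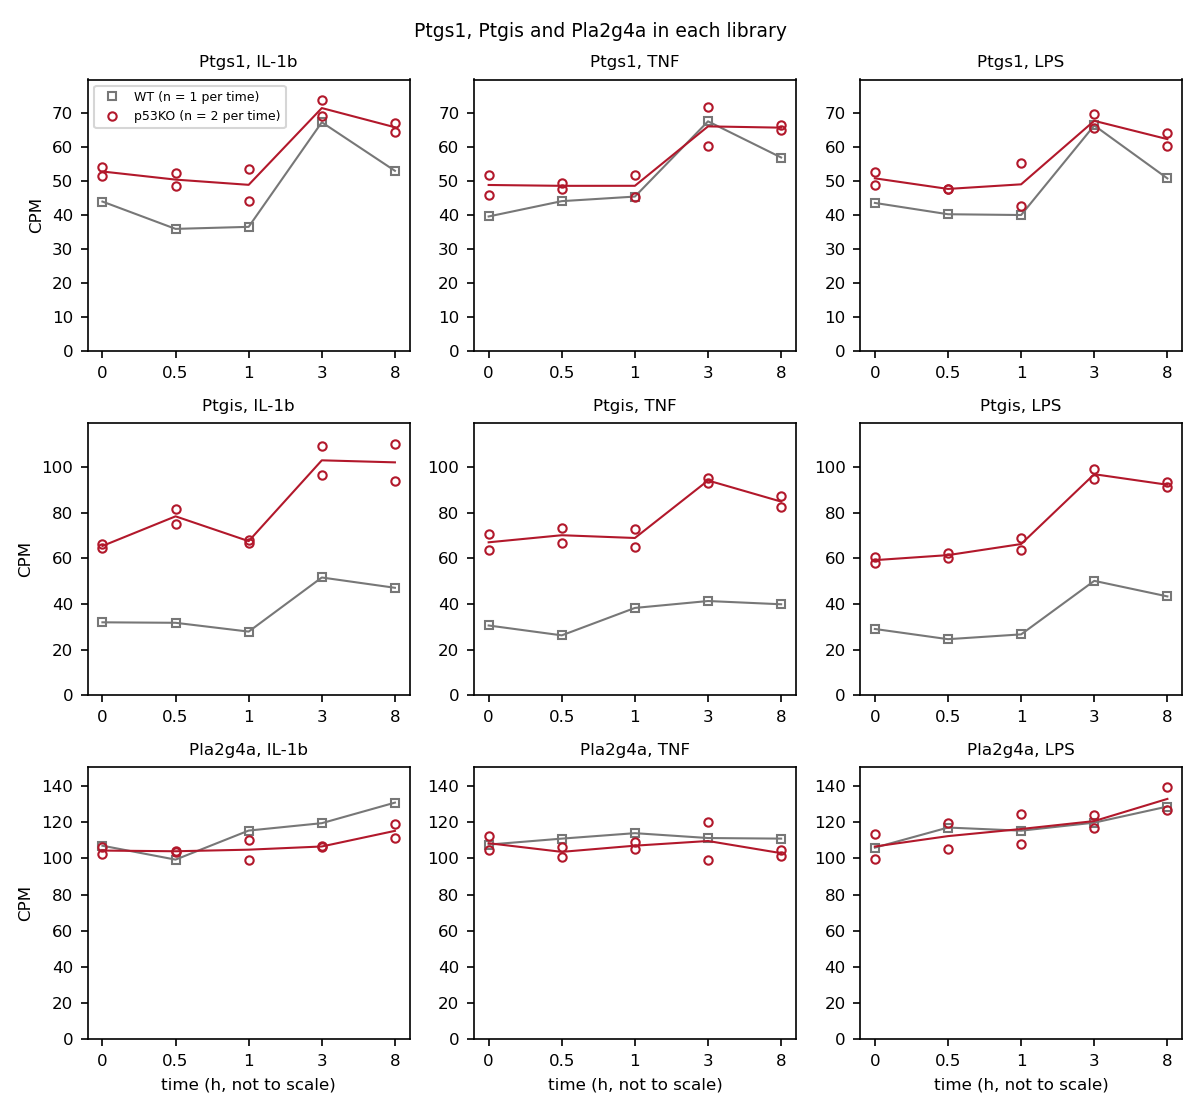
Level in CPM (y axis) of Ptgs1, Ptgis and Pla2g4a (rows) against time in h (x axis, evenly spaced) for IL-1b, TNF and LPS (columns). Grey squares are WT (1 library per time), red circles p53KO (2 libraries), lines join means; Ptgis runs higher in p53KO than in WT throughout, while Pla2g4a is nearly flat in both.

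Ptgs2 (ENSMUSG00000032487, chromosome 1, 151947254 to 151955140, plus strand), the inducible cyclooxygenase, rose from 0.5 h, was highest at 3 h and had fallen by 8 h. With IL-1b it read 150 and 127 CPM in KO-1 and KO-2 at 0 h, 266 and 270 at 0.5 h, 676 and 666 at 1 h, 1693 and 1791 at 3 h, and 302 and 278 at 8 h. With TNF it went from 150 and 117 CPM through 361 and 323 at 0.5 h and 663 and 700 at 1 h to 1064 and 1078 at 3 h, then 194 and 214 at 8 h. With LPS it went from 154 and 131 CPM through 364 and 278, and 796 and 842, to 1831 and 1883 at 3 h, then 349 and 283 at 8 h. In every series 3 h was highest and 0 h lowest, and no library of a later time overlapped the 0 h pair of its stimulus. The 3 h pair also lay above the 1 h pair in each series. When the 15 p53KO conditions were ordered by mean, from 3 h of LPS down to 0 h of TNF, 6 of the 14 neighbouring pairs overlapped, against 10 to 13 for the other 7 genes.

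The fitted rise of Ptgs2 was 0.95 (SE 0.12) at 0.5 h, 2.27 (SE 0.12) at 1 h and 3.65 (SE 0.13, adjusted p = 3.17e-17) at 3 h of IL-1b. The TNF values were 1.36, 2.36 and 3.01 (SE 0.13, adjusted p = 2.24e-15), and those of LPS 1.18, 2.53 and 3.71 (SE 0.13, adjusted p = 1.11e-17). Mean levels at 3 h were 12.5, 8.04 and 13.1 times those at 0 h with IL-1b, TNF and LPS. At 8 h Ptgs2 was still above 0 h, by 1.06, 0.61 and 1.15, with adjusted p of 3.07e-07, 0.000555 and 2.52e-08. Each of these 12 calls held without any single library.

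Ptges (ENSMUSG00000050737, chromosome 2, 30744991 to 30785383, minus strand), the inducible microsomal prostaglandin E synthase, was called later than Ptgs2 and stood highest at 8 h. With LPS it read 6.13 and 5.90 CPM in KO-1 and KO-2 at 0 h, 4.18 and 6.40 at 1 h, 30.3 and 31.5 at 3 h, and 65.0 and 77.4 at 8 h. With IL-1b it read 5.99 and 7.02 CPM at 0 h, 8.57 and 9.14 at 1 h, 14.5 and 20.5 at 3 h, and 20.8 and 31.6 at 8 h. With TNF it read 5.91 and 5.63 CPM at 0 h, 7.91 and 8.68 at 1 h, 13.7 and 20.0 at 3 h, and 20.5 and 28.8 at 8 h. The 3 h and 8 h libraries lay above every earlier p53KO library of their stimulus, and the LPS pair at 8 h was the highest of all p53KO libraries.

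The rise of Ptges at 3 h was 1.43 (SE 0.23, adjusted p = 1.48e-05) with IL-1b, 1.53 (SE 0.25, 3.34e-05) with TNF and 2.36 (SE 0.22, 1.82e-09) with LPS. At 8 h it was 2.01 (SE 0.21, 8.37e-08), 2.04 (SE 0.24, 4.83e-07) and 3.56 (SE 0.20, 8.76e-14), which in mean level was 4.03, 4.27 and 11.8 times that at 0 h. No call was made at 0.5 or 1 h, when the changes lay between -0.18 and 0.52 with adjusted p of 0.322 or more.

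**Figure D3:**
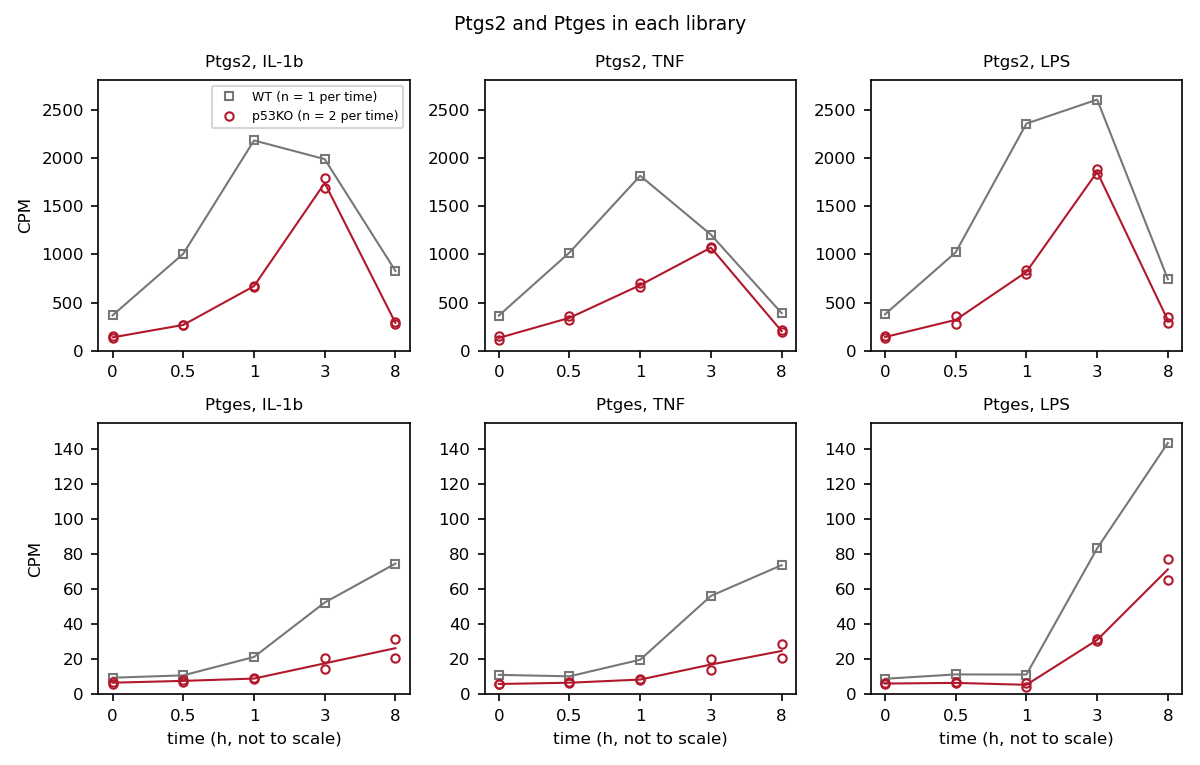
Level in CPM (y axis) of Ptgs2 (upper row) and Ptges (lower row) against time in h (x axis, evenly spaced) for IL-1b, TNF and LPS (columns). Grey squares are WT (1 library per time), red circles p53KO (2 libraries), lines join means; Ptgs2 in p53KO is highest at 3 h, Ptges is highest at 8 h in both genotypes.

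Ptger4 (ENSMUSG00000039942, chromosome 15, 5156661 to 5194187, minus strand), the EP4 receptor, rose early and briefly. With LPS it read 4.02 and 3.71 CPM in KO-1 and KO-2 at 0 h, 10.4 and 8.53 at 1 h, 5.77 and 5.91 at 3 h, and 4.72 and 4.57 at 8 h. With TNF it read 3.57 and 3.87 at 0 h, 7.08 and 7.20 at 1 h, 6.35 and 7.21 at 3 h, and 4.15 and 3.60 at 8 h. With IL-1b the peak was at 3 h, with 2.91 and 3.95 at 0 h, 5.92 and 5.32 at 1 h, 8.26 and 7.71 at 3 h, and 4.07 and 3.54 at 8 h. At 1 and 3 h no library overlapped the 0 h pair of its stimulus. The log2 rises at 1 h were 0.72 (SE 0.19, adjusted p = 0.0187) with IL-1b, 0.94 (SE 0.19, 0.00248) with TNF and 1.29 (SE 0.18, 1.78e-05) with LPS. At 3 h they were 1.22 (SE 0.19, 9.17e-06), 0.86 (SE 0.20, 0.00185) and 0.60 (SE 0.20, 0.0167).

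Some of the Ptger4 calls rest on single libraries. The 1 h IL-1b call was lost without the KO-1 library at 0 h (adjusted p = 0.357) or 1 h (0.193), and the 3 h LPS call without the KO-1 or KO-2 library at 3 h (0.0601 and 0.0761) or the KO-2 library at 0 h (0.0963). DESeq2's Wald test gave adjusted p = 0.283 for the 1 h IL-1b rise, 0.0697 for the 1 h TNF rise and 0.126 for the 3 h LPS rise. Counts of Ptger4 were 21 to 187 per library. Ttc33, a gene on the opposite strand that overlaps it, had 82 to 244 counts, and since the strand setting of the counting is not given, reads of the pair may not be told apart.

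Ptger2 (ENSMUSG00000037759, chromosome 14, 45607870 to 45623495, plus strand), the EP2 receptor, was near the limit of detection at first and was called higher from 3 h. At 0 h it had 2 to 6 counts in each of the 9 libraries, or 0.246 to 0.704 CPM in p53KO. Counts were 2 to 13 per library at 0.5 h and 2 to 5 at 1 h. The lines disagreed at 0.5 h of LPS, with 0.420 CPM (5 counts) in KO-1 and 1.43 CPM (13 counts) in KO-2. At 3 h it read 2.53 and 4.03 CPM in KO-1 and KO-2 with IL-1b, 2.08 and 4.08 with TNF, and 4.87 and 5.03 with LPS, with no overlap with 0 h. At 8 h it read 1.46 and 1.93, 1.90 and 1.71, and 1.47 and 2.53 CPM. From summed p53KO counts of 7 at 0 h and 78 at 3 h of LPS, the level rose 15.8 times (95% interval 7.30 to 40.5, exact, counting error only). With IL-1b the ratio was 7.62 (3.86 to 16.7) from 10 and 57 counts, and with TNF 6.24 (2.93 to 15.3) from 8 and 48 counts. Gm17173, an overlapping gene on the opposite strand, had 0 to 12 counts per library (median 3). Since the strand setting is not given, reads of Ptger2 and Gm17173 may not be told apart either, which bears most on the low 0 h counts.

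The edgeR changes of Ptger2 at 3 h had adjusted p = 2.38e-05 with IL-1b, 0.000300 with TNF and 2.9e-07 with LPS, and at 8 h 0.00839, 0.0118 and 0.000502. The 8 h IL-1b call was lost without either 0 h library or without the KO-2 8 h library (adjusted p = 0.0501 to 0.0684), and the 8 h TNF call without the KO-1 library at 0 or 8 h (0.112 to 0.127). DESeq2's Wald test gave adjusted p = 0.0650 for the 8 h TNF change.

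Hpgd (ENSMUSG00000031613, chromosome 8, 58773349 to 58799843, plus strand), which inactivates prostaglandins, was the 1 gene of the 8 that fell from its 0 h level. It lay at 3.05 to 3.96 CPM in the 6 p53KO libraries at 0 h. At 3 h it read 1.76 and 2.37 CPM in KO-1 and KO-2 with IL-1b, 1.85 and 1.77 with TNF, and 0.385 and 1.38 with LPS, all below every 0 h library. At 8 h it read 1.56 and 2.79 with IL-1b, 1.55 and 1.54 with TNF, and 1.58 and 1.17 with LPS. The log2 change at 3 h was -0.82 (SE 0.29, adjusted p = 0.0281), -0.89 (SE 0.33, 0.0369) and -2.05 (SE 0.36, 5.62e-05) with IL-1b, TNF and LPS. At 8 h it was -1.12 (adjusted p = 0.0120) with TNF and -1.44 (0.000766) with LPS, while -0.74 with IL-1b was not called (0.0617) but passed with the line block (0.0369) and with pooled 0 h libraries (-0.72, 0.0197).

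The LPS falls of Hpgd held without any single library, but those with the cytokines did not. The 3 h TNF call was lost without any 1 of its 4 libraries (adjusted p = 0.0563 to 0.176), the 3 h IL-1b call without the KO-1 3 h or the KO-2 0 h library (0.216 and 0.144), and the 8 h TNF call without the KO-1 library at 0 or 8 h (0.0850 and 0.121). Without the KO-2 8 h library the 8 h IL-1b fall passed (adjusted p = 0.0245). By DESeq2's Wald test the 3 h falls had adjusted p = 0.167 with IL-1b and 0.163 with TNF, and the 8 h TNF fall 0.0849. In WT cells with LPS Hpgd went from 41 counts at 0 h to 3 counts at 3 h and 3 at 8 h, ratios of 0.0898 (95% interval 0.0178 to 0.282, counting error only) and 0.0685 (0.0136 to 0.215).

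**Figure D4:**
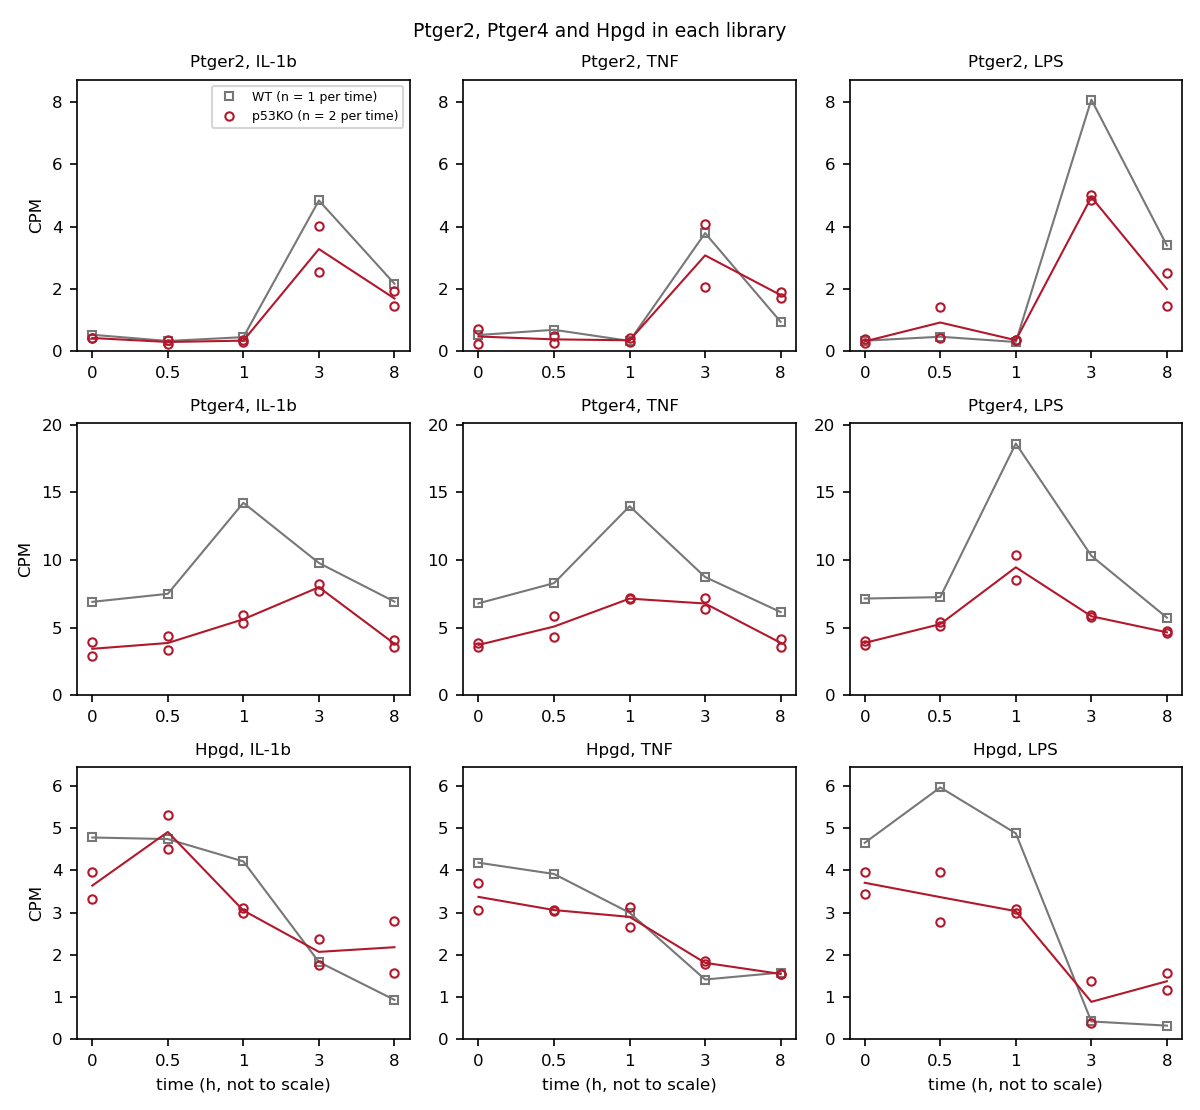
Level in CPM (y axis) of Ptger2, Ptger4 and Hpgd (rows) against time in h (x axis, evenly spaced) for IL-1b, TNF and LPS (columns). Grey squares are WT (1 library per time), red circles p53KO (2 libraries), lines join means; Ptger4 is highest at 1 h in WT, Ptger2 at 3 h in both genotypes, and Hpgd is lower at 3 and 8 h than at 0 h.

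Between 3 and 8 h the genes parted. Ptgs2 fell with every stimulus, with log2 changes of -2.59 (SE 0.12, adjusted p = 5.7e-14) with IL-1b, -2.40 (SE 0.12, 1.11e-12) with TNF and -2.55 (SE 0.12, 4.17e-14) with LPS. Ptges went up over the same interval, by 0.58 (SE 0.19, adjusted p = 0.0178) with IL-1b and 1.20 (SE 0.16, 1.75e-06) with LPS, while its change with TNF, 0.50, was not called (0.0622) but passed with the line block (0.52, adjusted p = 0.0116) and without the filter on low counts (0.0044). Ptger4 fell with IL-1b (-1.07, adjusted p = 8.7e-05) and TNF (-0.77, 0.00553), and Ptger2 with LPS (-1.29, 0.00465). So 1 gene was higher and 2 lower with IL-1b and with LPS, and 2 were lower with TNF. Of all genes, 18.5% were higher and 17.0% lower with IL-1b, 12.3% and 12.6% with TNF, and 20.2% and 18.0% with LPS.

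The later rise of Ptges with IL-1b was lost without the KO-1 3 h library (adjusted p = 0.262) or the KO-2 8 h library (0.411), and that with TNF passed without the KO-1 8 h or the KO-2 3 h library (0.0279 and 0.0233). The Ptger2 fall with LPS was lost without the KO-1 8 h library (0.0684), and the fall with IL-1b (adjusted p = 0.0568) passed without the KO-1 3 h library (0.0356), with the line block (-0.94, 0.0166) and without the filter (0.0370). The Ptger4 fall with TNF was lost without the KO-2 3 h library (0.0503). DESeq2's Wald test gave adjusted p = 0.0958 for that Ptger2 fall and 0.0631 for that Ptger4 fall.

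The 3 stimuli were compared in p53KO by a test over all 4 times of whether the change from 0 h differed. LPS differed from TNF for Ptges (adjusted p = 6.27e-05) and Ptgs2 (0.00246), where 5.14% of all genes were called. LPS differed from IL-1b for Ptges (2.52e-05) and Ptger4 (0.0245), where 6.91% of all genes were called. IL-1b differed from TNF for Ptgs2 alone among the 8 (0.00210), where 1.42% of all genes were called (197 genes, or 477 with the line block). For Ptges the LPS rise at 8 h was larger than that of IL-1b by 1.56 (SE 0.31, adjusted p = 0.00162) and than that of TNF by 1.53 (SE 0.34, 0.00541). For Ptgs2 the LPS rise at 3 h was larger than that of TNF by 0.70 (SE 0.17, adjusted p = 0.0228). At 3 h alone the difference of IL-1b from TNF for Ptgs2 was 0.64 (SE 0.17) and was not called (adjusted p = 0.281, and 0.0627 with the line block) except without the filter (1.94e-05). With the line block the LPS change also exceeded that of IL-1b for Ptges at 3 h (0.94, adjusted p = 0.0496), and that of TNF at 8 h for Ptgs2 (0.54, 0.0252) and Pla2g4a (0.40, 0.0188), which were not called without it (0.267, 0.0748 and 0.0943). The Ptger4 difference, where the peak came at 1 h with LPS and at 3 h with IL-1b, was lost without any of 6 of the 20 libraries (the LPS 3 h and IL-1b 3 h pairs, the KO-1 LPS 1 h and the KO-2 IL-1b 1 h library, adjusted p = 0.0575 to 0.105) and had adjusted p = 0.511 by DESeq2's likelihood ratio test.

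WT and p53KO cells differed in the levels of 5 of the 8 genes. With the 15 libraries of a line added up, Ptgs2 stood at 1232 CPM in WT and at 557 and 548 CPM in KO-1 and KO-2. The log2 difference between p53KO and WT was -1.16 for Ptgs2 (SE 0.06, adjusted p = 1.3e-05). Ptges stood at 40.3 CPM in WT and 14.6 and 16.9 in the p53KO lines (-1.36, SE 0.09, 3.18e-05), and Ptger4 at 9.28 and at 5.38 and 5.07 CPM (-0.83, SE 0.11, 0.000942). Ptgis went the other way, at 36.3 CPM in WT and 79.3 and 75.6 in p53KO (1.09, SE 0.06, 1.51e-05). Ptgs1 was slightly higher in p53KO (0.17, SE 0.06, 0.0433). Of all 12918 genes in this comparison 21.1% were higher and 19.2% lower in p53KO. Pla2g4a (-0.07, adjusted p = 0.389), Hpgd (-0.14, 0.546) and Ptger2 (-0.60, 0.0793) were not called.

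At 0 h alone the p53KO differences were -1.42 (SE 0.10) for Ptgs2, -0.65 (SE 0.16) for Ptges, -0.93 (SE 0.19) for Ptger4 and 1.06 (SE 0.10) for Ptgis, with adjusted p from 9.38e-07 to 0.00634 for the last 3 and 3.61e-08 for Ptgs2. Ptgs1 was not called at 0 h (0.26, adjusted p = 0.0602) or by DESeq2's Wald test on the summed counts (0.135). The WT library lay above both p53KO libraries in 15 of 15 conditions for Ptgs2, Ptges and Ptger4, and below both in 15 of 15 for Ptgis and 12 of 15 for Ptgs1. Mean WT levels were 1.13 to 3.76 times those of p53KO for Ptgs2, 1.42 to 3.32 times for Ptges and 1.22 to 2.53 times for Ptger4, and p53KO levels 1.80 to 2.67 times those of WT for Ptgis. WT is 1 line, so the difference between genotypes and that between this line and the others cannot be told apart. The macrophage markers did not move together. Lyz2 was lower in p53KO (log2 difference -0.61, adjusted p = 0.0033), as were Adgre1 (-0.33, 0.0216) and Mrc1 (-0.31, 0.0425). Fcgr1 was higher (0.70, 0.00689), and the other macrophage markers were not called. Of the epithelial markers Krt8 and Krt18 were higher (1.83 and 2.13), while Krt14 was not called (0.45). Krt5 and Cdh1 had lower median levels in p53KO (0.116 and 0.514 CPM) than in WT (0.473 and 0.618 CPM). The median of Epcam was 0.307 CPM in p53KO and 0.221 CPM in WT. Among the fibroblast markers Thy1, Vim and Lum were lower in p53KO (log2 differences -0.85, -0.55 and -0.64). Col3a1, Pdgfra and Dcn were higher (0.36, 0.40 and 0.35), while Col1a1, Col1a2, Fn1 and Pdgfrb lay between -0.02 and 0.06. The part of these markers in the differences was not tested.

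The shape of the Ptgs2 response also differed between genotypes. In WT it read 368, 365 and 378 CPM at 0 h of the IL-1b, TNF and LPS series, 1008, 1021 and 1023 at 0.5 h, and 2185, 1818 and 2360 at 1 h. By 3 h it read 1991, 1206 and 2609 CPM, and by 8 h 830, 391 and 744 CPM. At 1 h WT was thus at its highest with IL-1b and TNF and at 90.4% of its highest with LPS, whereas p53KO was at 38.5%, 63.6% and 44.1% of its 3 h level. The test over 4 times of a difference in the change from 0 h gave adjusted p = 6.07e-05 with IL-1b, 0.00123 with TNF and 0.00437 with LPS, where 5.74%, 0.462% and 2.66% of all genes were called (795, 64 and 368 genes, or 1360, 174 and 710 with the line block). Of the 12 single times, 3 h was called with each stimulus. There the change was larger in p53KO by 1.21 (SE 0.20, adjusted p = 0.00143), 1.28 (SE 0.20, 0.00266) and 0.92 (SE 0.20, 0.0222). At 0.5 h the difference lay between -0.51 and -0.13, at 1 h between -0.30 and 0.04, and at 8 h between -0.11 and 0.51, with no call. Each WT time had 1 library, whose spread was taken to be that of the p53KO pairs.

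For the other 7 genes a call of a difference between genotypes in the change from 0 h depended on the fit. In the fit used throughout none passed, and Ptges came nearest, with adjusted p = 0.0995 for IL-1b. With the line block Ptges passed with IL-1b (adjusted p = 0.0107), and without the filter Ptges passed with IL-1b (4.46e-05) and TNF (0.00575) and Hpgd with LPS (0.0278). At 3 h of IL-1b the change of Ptges was smaller in p53KO by a log2 difference of -1.06 with the line block (adjusted p = 0.0257, against 0.109). It read 9.35, 10.7, 21.2, 52.3 and 74.5 CPM at the 5 times of IL-1b in WT, 11.0, 10.1, 19.6, 56.1 and 73.6 with TNF, and 8.74, 11.2, 11.1, 83.2 and 143 with LPS. Its 8 h levels were 7.97, 6.71 and 16.4 times those at 0 h in WT, beside 4.03, 4.27 and 11.8 times in p53KO. Without the KO-2 8 h IL-1b library the IL-1b difference passed (adjusted p = 0.0253). Without the KO-1 3 h LPS library a difference for Hpgd with LPS passed (0.0355, from 0.107). For the other 7 genes the difference at single times between p53KO and WT in the change from 0 h had standard errors of 0.16 to 0.20 for Pla2g4a, Ptgs1 and Ptgis, and of 0.29 or more for the scarcer genes.

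Across the 45 libraries, log2 CPM of Ptgs2 followed that of Ptger4 with a Pearson r of 0.84. Ptger2 followed Ptgs1 (0.77) and Ptges (0.76), and Ptgs1 followed Ptgis (0.71), while Hpgd ran against Ptger2 (-0.80) and Ptges (-0.79). These are descriptions over libraries that share lines and time points. They pool WT and p53KO, whose levels of Ptgs2, Ptger4, Ptges, Ptgis and Ptgs1 differed, and these pairs were not read in p53KO alone. The genes most like Ptgs2 over the whole table were Ereg (epiregulin, a growth factor, r = 0.95), Rgs16, a regulator of G protein signalling (0.94), Trib1, Lif and Fosl1 (0.93 each). Those most like Ptges were Glrx, a glutaredoxin (0.97), Rab32 (0.97), the prostaglandin transporter Slco2a1 (0.95), the chemokine Cxcl3 (0.94) and Dram1 (0.94). Among the 30 p53KO libraries alone 3 of the 5 remained for Ptgs2 (Ereg, Rgs16 and Lif) and 1 of the 5 for Ptges (Rab32).

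The wider pathway was read from 6 lists of 52 further genes, of which 51 were in the file and 35 passed the filter. At 3 h 4 of the 35 rose and 9 fell with IL-1b, 4 rose and 5 fell with TNF, and 8 rose and 11 fell with LPS. At 8 h 6 rose and 5 fell, 6 rose and 8 fell, and 8 rose and 9 fell. The shares that rose at 3 h were 11.4%, 11.4% and 22.9% with IL-1b, TNF and LPS, beside 21.0%, 18.4% and 21.9% of all genes. The shares that fell were 25.7%, 14.3% and 31.4%, beside 21.7%, 17.6% and 22.1%. At 8 h 17.1%, 17.1% and 22.9% rose, beside 12.5%, 14.5% and 17.0% of all genes, and 14.3%, 22.9% and 25.7% fell, beside 11.8%, 14.1% and 17.2%. With the line block 9 in place of 5 fell at 3 h of TNF, with Cbr1, Cysltr1, Fads2 and Lpcat3 added, and each other count moved by 0 to 2 genes. Among the genes named below, the block also added a fall of Fads2 at 3 h of IL-1b (-0.22, adjusted p = 0.0447). At 8 h it added falls of Lpcat3 (-0.30, 0.0130) and Plaat3 (-0.53, 0.0319) with IL-1b. With TNF it added a fall of Cbr1 at 8 h (-0.35, 0.0259), and with LPS a rise of Pla2g15 at 8 h (0.25, 0.0391). The median log2 change of the 35 was -0.13, -0.14 and -0.15 at 3 h and -0.01, -0.07 and -0.09 at 8 h, beside medians of all genes of -0.025 to -0.001. Of the 71 calls the naming rule picked from these lists, 28 were lost without at least 1 library and 18 by DESeq2's Wald test.

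In transport and breakdown (5 of 5 genes tested), Slco2a1, which takes prostaglandins up from outside the cell, rose with every stimulus at 3 h (1.11, 0.93 and 1.07 with IL-1b, TNF and LPS) and 8 h (1.00, 1.31 and 1.71, SE 0.12 to 0.13, adjusted p = 1.36e-06, 3.23e-08 and 2.61e-11). In mean CPM of 2 p53KO libraries it went from 42.8 at 0 h to 140 at 8 h of LPS. Abcc4, an exporter of prostaglandins, rose at 8 h (0.96, 0.53 and 0.74, adjusted p = 2.81e-05, 0.0123 and 0.000349). Ptgr2 and Zadh2, reductases of prostaglandin metabolites, fell at 3 h (Ptgr2 -0.57, -0.46 and -0.54, and Zadh2 -0.31, -0.30 and -0.35), and Ptgr2 was still lower at 8 h (-0.40, -0.41 and -0.49). The Ptgr2 calls with the cytokines at 8 h were lost without the KO-1 8 h library or a KO-2 0 h library of that stimulus, and with IL-1b also the KO-2 8 h library (adjusted p = 0.0658 to 0.220). The TNF calls of Ptgr2 at 3 h (0.0837) and Abcc4 at 8 h (0.0628 to 0.0921) were lost without the KO-2 0 h library, and that of Abcc4 also without the KO-1 8 h library.

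Among the other receptors 4 of 7 genes were tested, and 2 of them changed at both times with every stimulus. Ptgir, the prostacyclin receptor, rose by 1.39, 1.19 and 1.31 at 3 h and by 1.28, 1.18 and 1.62 at 8 h. Its p53KO mean at 0 h was 1.32, 1.62 and 2.12 CPM in the IL-1b, TNF and LPS series. Tbxa2r, the thromboxane receptor, fell, with changes of -2.20, -2.57 and -2.53 at 3 h and of -1.51, -2.30 and -1.39 at 8 h. Its p53KO mean went from 3.19, 3.76 and 3.71 CPM at 0 h to 0.674, 0.639 and 0.633 CPM at 3 h. Ptger1, the EP1 receptor, was called lower at 3 h of LPS (-2.20, SE 0.79, adjusted p = 0.0285), a call lost without either 3 h library or the KO-1 0 h library (0.114 to 0.140). In mean CPM of p53KO, Ptger1 went from 0.636 at 0 h to 0.127 at 3 h of LPS. The Ptgir calls with LPS held without any single library. Those with IL-1b at 8 h and with TNF at 3 and 8 h did not (0.0525 to 0.196), each being lost without the KO-2 0 h library and 1 or 2 others, and the 8 h IL-1b call of Tbxa2r was lost without the KO-1 library at 0 or 8 h (up to 0.0523).

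Of the other prostanoid synthases 7 of 8 were tested. Hpgds, which makes prostaglandin D2 in blood cells, fell at 8 h (-1.16, -1.51 and -1.35, adjusted p = 0.00547, 0.00139 and 0.00106). Akr1b3, an aldose reductase that can make prostaglandin F2 alpha, rose at 3 and 8 h of LPS (0.34 and 0.68) and at 8 h of IL-1b (0.34). Cbr1 fell at 3 h of IL-1b (-0.51) and LPS (-0.70), and Prxl2b fell at 3 h of IL-1b (-0.53) and at 8 h of TNF (-0.79) and LPS (-0.51). Ptges3, the cytosolic prostaglandin E synthase, rose at 8 h of TNF (0.32, adjusted p = 0.0132). Without 1 library of their own contrast the Hpgds calls with IL-1b (KO-2 8 h, 0.117) and TNF (KO-1 0 h, 0.0502), the Ptges3 call (KO-2 at 0 or 8 h, up to 0.112), all 3 of Prxl2b (up to 0.304), and those of Akr1b3 with IL-1b and at 3 h of LPS (up to 0.206) were lost.

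In arachidonate supply 9 of 10 genes were tested, and Acsl4, which couples arachidonate to coenzyme A, rose throughout, by 0.75, 0.64 and 0.83 at 3 h and 0.58, 0.58 and 0.65 at 8 h. Fads1 and Fads2, the desaturases on the way to arachidonate, fell at 8 h, with changes of -0.43, -0.52 and -0.75 for Fads1 and of -0.40, -0.36 and -0.59 for Fads2. Daglb fell at 3 h (-0.55, -0.45 and -0.85), Mgll rose at 3 h of IL-1b (0.39) and LPS (0.51), and Lpcat3 fell at 8 h of TNF (-0.60). The TNF call of Daglb was lost without the KO-1 3 h or KO-2 0 h library (adjusted p = 0.166 to 0.329), the IL-1b call of Mgll without the KO-2 3 h library (0.0737), and the IL-1b call of Fads2 without the KO-1 8 h or KO-2 0 h library (up to 0.157), and its TNF call without the KO-1 8 h, KO-2 0 h or KO-2 8 h library (0.0845, 0.110 and 0.0696).

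Of the phospholipases A2 6 of 12 were tested. Pla2g15, the lysosomal enzyme, fell at 3 h of IL-1b (-0.33) and LPS (-0.51) and was higher at 8 h of IL-1b (0.29) and TNF (0.34). Pla2g6 fell (-0.52) and Plaat3 rose (0.54) at 3 h of LPS, and Pla2g4c was called higher at 8 h of LPS (1.33, SE 0.52, adjusted p = 0.0494). Of the leukotriene and lipoxygenase genes 4 of 10 were tested. Alox5, the 5-lipoxygenase, fell at 8 h of LPS (-2.77, SE 0.48, adjusted p = 5.63e-05), and Cysltr1 fell at 3 h of IL-1b (-1.37) and LPS (-1.23). With the libraries of a line added up, Alox5 and Cysltr1 stood at 1.71 and 1.70 CPM in KO-1 and lower in KO-2. The p53KO means of some conditions, among them both genes at 0 h of LPS, lay above these values. Those at the later time of each call lay below them. Alox5 was at 0.247 CPM (SD 0.201) at 8 h of LPS, near the limit of detection, and Cysltr1 at 0.784 CPM at 3 h of IL-1b. With single libraries left out, the Alox5 change at 8 h of LPS lay between -3.94 and -2.17. The IL-1b and LPS calls of Cysltr1 (adjusted p up to 0.575 and 0.272), those of Pla2g15 with the cytokines (up to 0.534), of Plaat3 (up to 0.184) and of Pla2g4c (0.312, without the KO-2 0 h library) were lost without 1 library of their contrast. Without the filter on low counts the calls of Ptger1 (adjusted p = 0.0599), Pla2g4c (0.0953), Prxl2b at 8 h of LPS (0.0519) and Pla2g15 at 8 h of IL-1b (0.0780) did not pass, nor with pooled 0 h libraries those of Pla2g15 at 3 h of IL-1b (0.0668) and 8 h of TNF (0.0606).

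**Figure D5:**
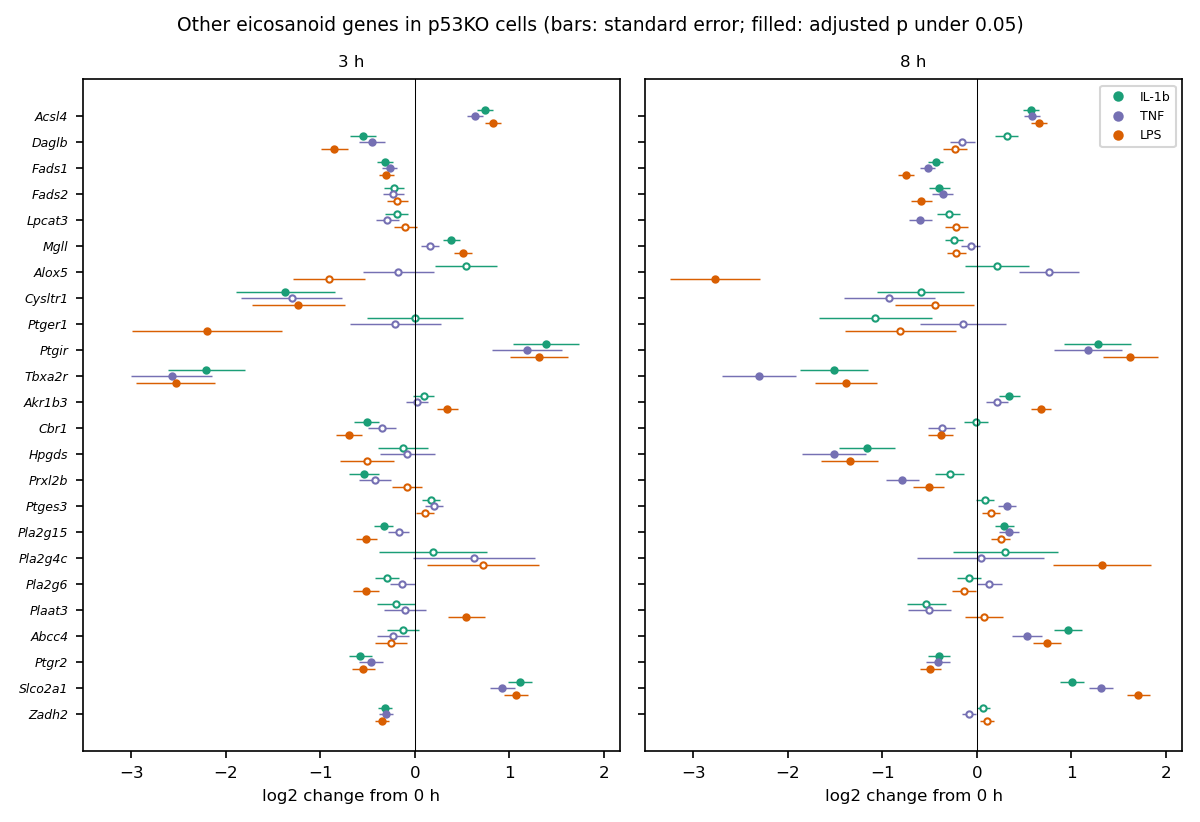
Log2 change from 0 h (x axis) at 3 h (left) and 8 h (right) in p53KO cells for the genes of the 6 wider lists named in the text (y axis). Colours are stimuli, bars 1 standard error, filled points have an adjusted p under 0.05; Slco2a1, Ptgir and Acsl4 lie to the right and Tbxa2r, Ptgr2 and Fads1 to the left with all 3 stimuli at both times.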

How the data were processed

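The deposited file gives whole-number counts of reads per gene, with mm9 coordinates, for all 45 libraries. Per the submitters' processing notes the authors used STAR, featureCounts and DESeq, without versions; the strand setting and annotation release are not given in the sources used here. Libraries were poly(A)-selected, stranded and paired-end, per the labels' protocols. Categories that name no gene held 24.65% of reads and were left out. Counts were fitted with edgeR 4.0.16 (R 4.3.3; quasi-likelihood, TMM), with 1 mean for each of 30 groups, for 13851 genes at 1 CPM or more in at least 2 libraries, and p-values were adjusted by Benjamini-Hochberg within each contrast. The level difference between genotypes used counts summed per line, with 1 residual degree of freedom. Libraries of 1 p53KO line pair across conditions, since the sample titles number the lines. Their deviations from the group means correlated with a median r of 0.191 (-0.169 to 0.504, 73 of 105 pairs over 0.1). The fit with the line as a replicate block was an alternative, as was DESeq2 1.42.0, beside other filters, scalings, pooled 0 h libraries and leaving out single libraries. Scripts were tested on simulated data. The 8 genes, the wider lists and the markers were chosen with earlier results of these data known. Named beyond the 8 were up to 3 genes per list, stimulus and time (3 and 8 h) with the smallest adjusted p, and the 5 genes with the highest r to Ptgs2 or Ptges. Intervals and counts near 0 cover counting error only.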

Additional observations from a re-analysis of the deposited data

Results flagged for a closer look

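The response of Ptgs2 differed between p53KO and WT cells with each stimulus, by the test over 4 times of the difference in change from 0 h (edgeR's quasi-likelihood test, adjusted p = 6.07e-05 with IL-1b, 0.00123 with TNF and 0.00437 with LPS). WT Ptgs2 started 2.65 to 2.74 times higher and at 3 h it was 1.14, 1.13 and 1.4 times higher with IL-1b, TNF and LPS. WT is 1 line with 1 library per time, so the genotype and that line cannot be told apart.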

How the results depend on the processing

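No called result changed sign under the alternatives run. Of 273 log2 values 51 had the other sign under at least 1 setting, and none of these was called as reported or with the other sign. Counts of the 8 genes called moved as follows. Without the filter, genotype differences in induction were called for 2 genes with IL-1b (Ptgs2 and Ptges), 2 with TNF (Ptgs2 and Ptges) and 2 with LPS (Ptgs2 and Hpgd), against 1 each. With DESeq2's test 1 gene was called at 1 h of IL-1b, 1 at 1 h of TNF, 1 lower between 3 and 8 h of TNF and 1 between LPS and IL-1b, against 2 each. With pooled 0 h libraries 2 were called at 0.5 h of IL-1b, against 1. With the replicate number as a block 2 were called at 0.5 h of IL-1b and 2 for the genotype difference with IL-1b, against 1 each. Of the results on the 8 genes, the block changed no call beyond those given beside them. Leaving out single libraries gave 1 to 2 genes at 1 h of IL-1b, 3 to 4 at 8 h of IL-1b, 3 to 6 at 8 h of TNF, 1 to 2 between LPS and IL-1b, and 1 to 2 for genotype with IL-1b and with LPS. Counts over all genes tested also moved by over 1.5 times under some settings. Without the filter, genotype differences in induction were called for 1397, 302 and 730 genes with IL-1b, TNF and LPS (against 795, 64 and 368), and with the replicate block for 1360, 174 and 710. IL-1b against TNF gave 809 genes without the filter and 477 with the block (against 197), and LPS against IL-1b 1509 without the filter (against 957). At 0.5 h IL-1b gave 1537 genes with the block, 2522 with pooled 0 h libraries and 596 by DESeq2 (against 1024). TNF gave 169 without the filter and 260 with pooled libraries (against 104), and LPS 139 and 144 (against 73). At 1 h pooled libraries gave 1520, 1677 and 1441 genes and DESeq2 476, 459 and 447 (against 823, 810 and 736 with IL-1b, TNF and LPS). DESeq2 gave 2048 genes at 8 h of IL-1b (against 3375), 2503 at 8 h of TNF (against 3960) and 2190 between 3 and 8 h of TNF (against 3456). The genotype difference in level was called for 3331 genes from the 0 h libraries alone and 9112 from a fit on the 45 separate libraries (against 5213). Leaving out single libraries gave 476 to 549, 487 to 650 and 390 to 448 genes at 1 h of IL-1b, TNF and LPS, 2021 to 2454 and 2116 to 3114 at 8 h of IL-1b and TNF, 1840 to 2560 between 3 and 8 h of TNF, 100 to 277 for IL-1b against TNF, and 412 to 848 for genotype with IL-1b, the lowest without the KO-2 3 h library. Among the 8 genes depth limits Ptger2 (2 to 6 counts per library at 0 h) and Hpgd (3 to 26 at 8 h). In the wider lists it also limits Ptger1, Tbxa2r, Ptgir, Pla2g4c, Alox5 and Cysltr1, and levels of all of these but Pla2g4c are given with their calls.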
